A study of Mus musculus with 6 samples.

Results

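The respiratory chain subunits examined here are the structural proteins of the mitochondrial complexes I to V. Members were protein-coding genes chosen by symbol: the Ndufa, Ndufb, Ndufc, Ndufs and Ndufv genes of complex I, Sdha to Sdhd of complex II, the Uqcr genes and Cyc1 of complex III, the Cox4 to Cox8 families of complex IV, the Atp5 genes of complex V and the 13 protein genes of mitochondrial DNA (mtDNA). The Ndufaf assembly factors were left out. The choice matched 99 gene records, of which 93 had at least 10 estimated counts in at least 3 libraries, among 13378 genes that met this minimum and 35968 genes in the files. The 93 genes comprised 80 nuclear and 13 mitochondrial genes: 42 belonged to complex I, 4 to complex II, 10 to complex III, 18 to complex IV and 19 to complex V. Ndufa4 and Ndufa4l2 carry a complex I name but were placed with complex IV, where the NDUFA4 protein is known to sit.

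The study asked how contact with leukaemia cells alters the metabolism of bone marrow stroma. RNA was sequenced from MS-5, a mouse stromal cell line, cultured alone (MS-5 only, libraries MO1 to MO3) or with SKM-1, a human acute myeloid leukaemia (AML) cell line laid over confluent stroma for 24 hr (co-culture, libraries MC1 to MC3). The cell types were separated and washed before RNA extraction, no sort or genetic change was described, and both groups came from the same cell line. The labels do not say whether the 3 replicates of a group were separate cultures, so p-values measure only the spread between these libraries, which may be technical.

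Complexes I and II pass electrons from NADH and succinate to coenzyme Q, complex III passes them on to cytochrome c and complex IV to oxygen. Complexes I, III and IV pump protons in doing so, and complex V, the ATP synthase, uses the gradient to make ATP. Complex II is built from nuclear genes alone, whereas the other complexes combine nuclear subunits with subunits that mtDNA encodes, so that both genomes must supply RNA.

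Libraries held 23978881 to 35694987 estimated counts. MO2 and MC3, 1 library of each group, stood apart from the other 4: their deviations from the group means correlated with each other (r = 0.73 across genes) and 5.92 to 6.07% of their counts came from the mitochondrial members, against 10.6 to 13.2% in the other 4 libraries. In co-culture, 8 of 14 tested leukocyte and myeloid markers of a list of 20 were called higher (edgeR, adjusted p under 0.1), and their summed level was 72.8, 70.6 and 81.4 CPM (counts scaled to the library total) in MO1, MO2 and MO3 and 129, 407 and 118 CPM in MC1, MC2 and MC3, so MC2 held the most. Irf8 was at 0 in all MS-5 only libraries and Tyrobp was at 0 in MO3, MC2 and MC3. Of 10 stromal markers, 9 were tested and 0 called. Their summed level was 8740 to 10556 CPM in MS-5 only and 10910 to 12102 CPM in co-culture, and Lum was at 0 in 5 of 6 libraries.

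Among the 93 subunit transcripts, 2 were called higher in co-culture and 0 lower by the quasi-likelihood test of edgeR, at a p under 0.1 after Benjamini-Hochberg adjustment across 13221 genes. Over all genes tested, 3.71% were called higher and 0.666% lower. Both called transcripts, Ndufa4l2 and Cox7a1, encode alternative forms of subunits placed here with complex IV, Ndufa4l2 only by its likeness to NDUFA4. In CPM scaled by the trimmed mean of M-values (TMM), 2 members had all co-culture libraries above all MS-5 only libraries, against 11.6% of all genes, and 0 had them all below, against 9.60%, while the other 91 overlapped. At an unadjusted p under 0.05, 3 members were higher and 0 lower, where 8.62% and 5.63% of all genes were. At adjusted p thresholds of 0.05 and 0.01, edgeR called 0 members in either direction. The lowest adjusted p over all genes tested was 0.0269, so no gene of any kind passed 0.01. RNA came in bulk from the separated stromal cells, so fewer cells with a transcript and less of it per cell cannot be told apart.

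Ndufa4l2 was the member with the largest difference. It lies on chromosome 10 (GRCm38, 127514967 to 127517154, plus strand) and encodes a paralogue of NDUFA4 known as a hypoxia-inducible transcript. Ndufa4l2 was at 5.27, 5.35 and 8.02 CPM in MO1, MO2 and MO3 and at 68.6, 44.2 and 45.6 CPM in MC1, MC2 and MC3. Every co-culture library lay far above every MS-5 only library, an 8.50-fold difference (log2 fold change 3.09 ± 0.27 SE, edgeR adjusted p = 0.0664, n = 3 per group). The difference was as large among the 4 libraries alike in mitochondrial share (log2 3.08, MC1 and MC2 against MO1 and MO3) as in MC3 against MO2 (3.09). Ndufa4l2 was not highest in MC2, the library with the most leukocyte marker RNA. Whether SKM-1 RNA entered the counts of this or any other gene was not tested. Without MO1, MO2 or MO3 the adjusted p rose to 0.300, 0.149 and 0.224, fits in which no gene at all passed the threshold.

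Ndufa4, the constitutive form, did not differ beyond the spread of the libraries. On the TPM scale, which is per length, Ndufa4 stood at 741, 1012 and 876 TPM in MS-5 only and 826, 708 and 801 TPM in co-culture, so the groups overlapped. Ndufa4l2 stood at 8.89, 15.3 and 11.3 TPM in MS-5 only and 107, 62.2 and 107 TPM in co-culture. As a share of the Ndufa4 level, Ndufa4l2 therefore was 1.2, 1.52 and 1.29% in MS-5 only, against 12.9, 8.78 and 13.3% in co-culture, with Ndufa4 remaining the more abundant form in every library. An exact permutation test on 3 against 3 libraries cannot give a two-sided p below 0.1. Within Ndufa4l2, the 934 nt protein-coding transcript carried most of the level (7.18, 10.6 and 11.3 TPM in MS-5 only and 95.5, 59.0 and 96.5 TPM in co-culture).

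The coding sequences of this pair are shown because reads of one form could be counted for the other where the letters match. They are the spliced coding parts of the most abundant coding transcripts in the GENCODE M21 annotation, with the longest shared stretch, 28 bases, in capitals.
Ndufa4l2: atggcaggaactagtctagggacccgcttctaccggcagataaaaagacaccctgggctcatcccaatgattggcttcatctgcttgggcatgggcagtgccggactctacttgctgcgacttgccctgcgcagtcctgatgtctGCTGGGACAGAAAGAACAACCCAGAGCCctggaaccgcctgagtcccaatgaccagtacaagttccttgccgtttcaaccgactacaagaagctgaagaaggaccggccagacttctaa
Ndufa4: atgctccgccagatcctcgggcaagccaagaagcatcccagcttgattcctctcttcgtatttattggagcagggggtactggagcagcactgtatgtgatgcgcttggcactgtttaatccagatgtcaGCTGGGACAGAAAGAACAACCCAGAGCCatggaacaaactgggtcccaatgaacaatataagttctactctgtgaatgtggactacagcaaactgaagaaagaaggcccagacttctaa
Over 245 aligned bases the pair were 68.6% identical. Kallisto matches reads through stretches of 31 bases, of which all transcripts of the pair shared 3, or 0.268% of those in Ndufa4l2. No other mouse gene shared any with Ndufa4l2. Human transcripts, such as those of SKM-1, were not compared.

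**Figure D1:**
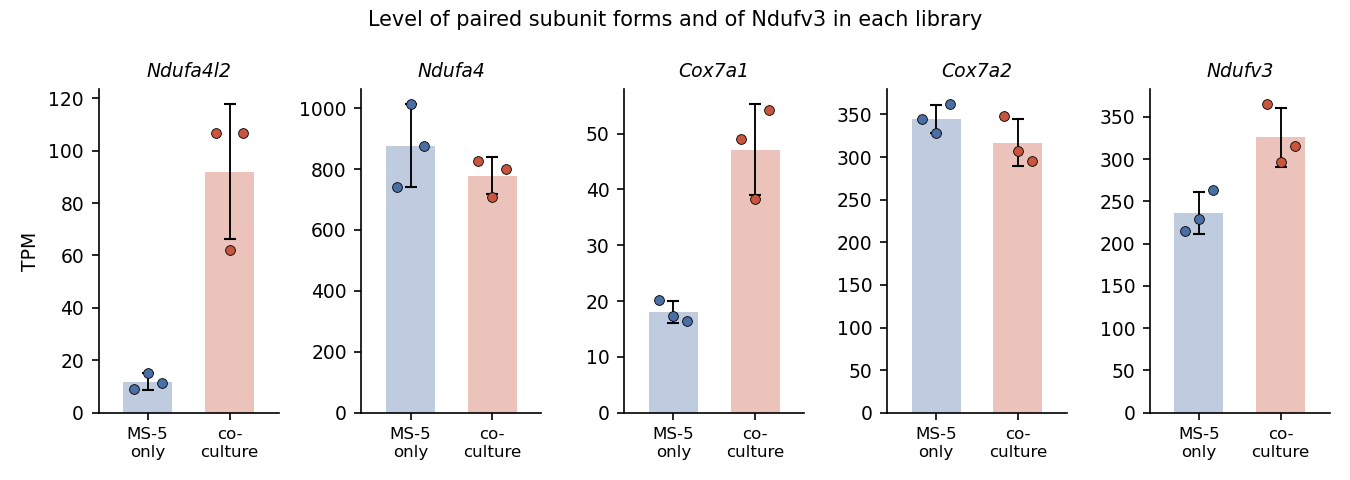
Level in TPM (vertical axes, each from 0) of Ndufa4l2, its partner Ndufa4, Cox7a1, its partner Cox7a2, and Ndufv3 in the MS-5 only libraries (blue) and co-culture libraries (red). Points are the 3 libraries of a group, in the order of replicate numbers, bars are means and whiskers SD. Ndufa4l2, Cox7a1 and Ndufv3 do not overlap between groups on this scale, whereas both partners do.

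Cox7a1 encodes the heart and skeletal muscle form of subunit VIIa of cytochrome c oxidase. It lies on chromosome 7 (GRCm38, 30184144 to 30186078, plus strand). Cox7a1 was at 3.87, 2.26 and 3.22 CPM in MO1, MO2 and MO3 and at 9.43, 7.93 and 6.99 CPM in MC1, MC2 and MC3. The groups did not overlap, and the level was 2.61-fold higher in co-culture (log2 fold change 1.38 ± 0.27 SE, edgeR adjusted p = 0.0752, n = 3 per group). The log2 difference was 1.29 in the 4 libraries alike in mitochondrial share and 1.63 in MC3 against MO2. The call held without MC3 (adjusted p = 0.0808) and was lost without any other library, with adjusted p from 0.149 to 0.300, while the log2 fold change stayed between 1.19 and 1.59.

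Cox7a2, the form made in most tissues, had 344, 329 and 362 TPM in MS-5 only and 348, 308 and 295 TPM in co-culture, which overlapped. Cox7a1 stood at 20.2, 17.3 and 16.5 TPM in MS-5 only and 49.0, 38.3 and 54.1 TPM in co-culture. Its share of the Cox7a2 level was 5.87, 5.28 and 4.56% in MS-5 only, against 14.1, 12.5 and 18.4% in co-culture. As for Ndufa4l2, the minor form stayed well below the major one in every library. The pair is printed in the same way, with the longest shared stretch, 12 bases, in capitals.
Cox7a1: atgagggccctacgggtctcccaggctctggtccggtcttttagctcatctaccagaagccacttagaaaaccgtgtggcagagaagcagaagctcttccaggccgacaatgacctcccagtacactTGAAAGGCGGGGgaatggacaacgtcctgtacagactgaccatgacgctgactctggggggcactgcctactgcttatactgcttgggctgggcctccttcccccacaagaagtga
Cox7a2: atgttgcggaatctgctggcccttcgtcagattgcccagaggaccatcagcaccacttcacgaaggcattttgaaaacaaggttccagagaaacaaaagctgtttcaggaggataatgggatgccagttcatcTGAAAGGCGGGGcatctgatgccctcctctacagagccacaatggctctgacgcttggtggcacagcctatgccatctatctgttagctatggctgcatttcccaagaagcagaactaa
Their coding sequences were 62.6% identical over 243 aligned bases, and their transcripts shared 0 stretches of 31 bases.

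The other complex IV subunits with a tissue-specific form stayed with the common form. Cox6a2, the muscle form of subunit VIa, had 3.17, 7.14 and 6.32 TPM in MS-5 only and 2.88, 4.95 and 2.47 TPM in co-culture, beside 764 to 932 TPM of the common Cox6a1 over all libraries. Its log2 fold change was −0.56 ± 0.52 SE (edgeR adjusted p = 0.747) and its groups overlapped. Cox4i2, the lung form of subunit IV that is known to respond to low oxygen, was at 0 to 0.361 TPM and 0 to 4 counts in the 6 libraries, beside 655 to 790 TPM of Cox4i1. Cox8b, a heart and muscle form of subunit VIII, was listed at 0 counts in all 6 libraries, where up to 3 counts per library would be allowed by counting error, whereas Cox8a had 987 to 1164 TPM. The members below the count minimum were Cox4i2, Cox6b2, Cox7b2, Cox8b, Cox8c and the second of the records named Atp5o.

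Over all 15 nuclear members of complex IV, Ndufa4l2 and Cox7a1 included, 8 had a negative log2 fold change, and the median was −0.01, beside −0.02 for all genes tested. Both called members were positive, so 8 of the other 13 were negative. Cox8a, a small membrane subunit with the highest TPM of the nuclear genes of the complex, had 987, 1030 and 1093 TPM in MS-5 only and 1164, 1034 and 1070 TPM in co-culture (log2 fold change 0.10 ± 0.28 SE, edgeR adjusted p = 0.959). Cox6a1 had a log2 fold change of −0.01 ± 0.28 SE and Cox4i1, a subunit that takes part in regulating the enzyme, of −0.05 ± 0.32 SE. Cox7c, a small membrane subunit, was the most negative after Cox6a2, with 502, 442 and 541 TPM in MS-5 only and 440, 414 and 383 TPM in co-culture. Its TPM values did not overlap, but its CPM values did (log2 fold change −0.24 ± 0.32 SE, edgeR adjusted p = 0.855).

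**Figure D2:**
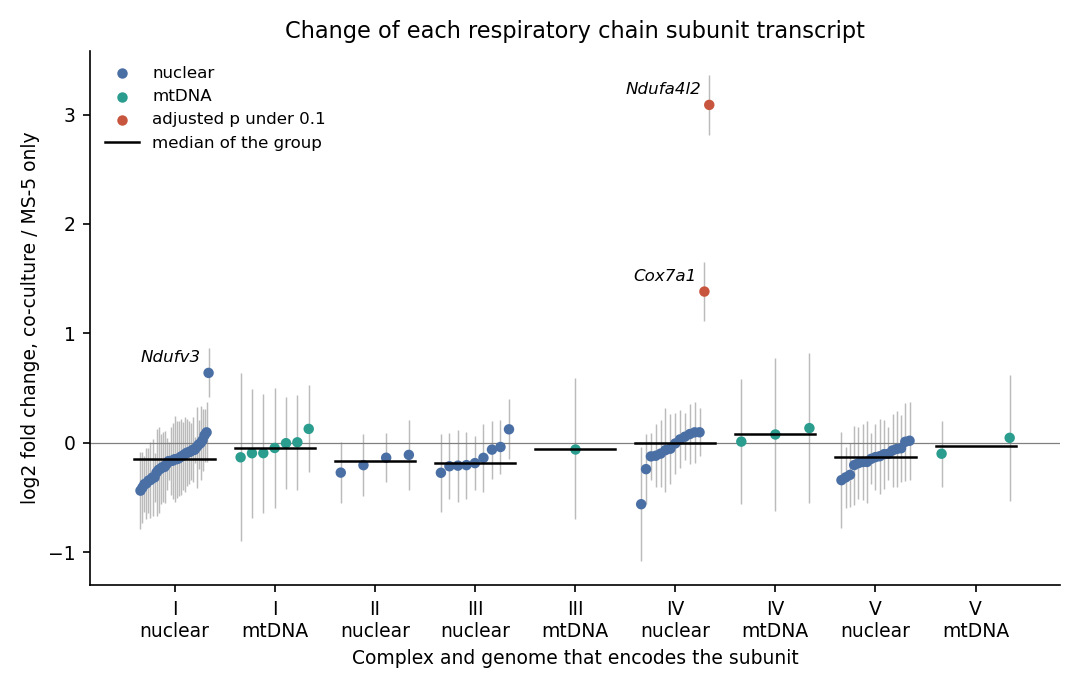
Log2 fold change of each of the 93 members in co-culture against MS-5 only (vertical axis), grouped by complex and by the genome that encodes the subunit (horizontal axis). Whiskers are SE derived from the edgeR F statistic, black lines the group medians, and red points the members with an adjusted p under 0.1. Ndufa4l2 and Cox7a1 are the red points, at 3.09 and 1.38, and Ndufv3 follows at 0.64, while most nuclear members of complexes I, II, III and V lie a little below 0.

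Complex I held the member with the third highest log2 fold change. Ndufv3 encodes a small subunit of the NADH-oxidising module and has long and short forms. Ndufv3 was at 69.4, 56.7 and 87.6 CPM in MO1, MO2 and MO3 and at 132, 114 and 86.5 CPM in MC1, MC2 and MC3. MC3 lay just below MO3, so the groups overlapped, and the call was not made (log2 fold change 0.64 ± 0.22 SE, unadjusted p = 0.0268, edgeR adjusted p = 0.254). Per length, Ndufv3 had 215, 229 and 264 TPM in MS-5 only and 365, 297 and 316 TPM in co-culture, which did not overlap. With a covariate that marks MO2 and MC3, the edgeR adjusted p was 0.0168.

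Both protein-coding forms of Ndufv3 were higher in every co-culture library on the TPM scale. The 493 nt form had 206, 205 and 252 TPM in MS-5 only and 335, 271 and 268 TPM in co-culture. The 1582 nt form had 9.13, 21.5 and 11.3 TPM in MS-5 only and 28.2, 24.3 and 41.2 TPM in co-culture. No test was run on single transcripts.

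The other nuclear subunits of complex I mostly lay slightly lower in co-culture, none past the threshold. Of 35, 31 had a log2 fold change below 0 and the median was −0.15, and the groups of all 35 overlapped in CPM. Over all 13221 genes, 52.5% had a negative log2 fold change. Ndufa9, a subunit at the junction of the membrane and matrix arms, was at 174, 88.1 and 174 CPM in MO1, MO2 and MO3 and at 130, 124 and 67.7 CPM in MC1, MC2 and MC3. The order of the libraries followed both the culture and the split of MO2 and MC3 from the rest, and the log2 fold change was −0.44 ± 0.35 SE (edgeR adjusted p = 0.686). In the 4 alike libraries alone it was −0.43 ± 0.09 SE (edgeR adjusted p = 0.0792).

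Ndufa5, a matrix arm subunit, had 273, 258 and 288 TPM in MS-5 only and 236, 207 and 178 TPM in co-culture. These did not overlap, whereas the CPM values did (log2 fold change −0.41 ± 0.32 SE, edgeR adjusted p = 0.676). The accessory subunits Ndufb8 and Ndufb9 had the highest TPM of the nuclear genes of the complex, with log2 fold changes of −0.25 ± 0.40 SE and −0.15 ± 0.39 SE.

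Complex II, succinate dehydrogenase, was lower in co-culture for all 4 of its subunits by the sign alone, with a median log2 fold change of −0.17. The summed level of the 4 genes was 540, 518 and 545 TPM in MS-5 only and 489, 465 and 461 TPM in co-culture. All MS-5 only libraries lay above all co-culture libraries, and the means were 534 ± 14.5 and 472 ± 15.0 TPM (SD, n = 3), a ratio of 0.883. In CPM the sums overlapped, at 430 to 671 in MS-5 only and 379 to 596 in co-culture. Sdhd, a membrane anchor that binds coenzyme Q, had 125, 116 and 117 TPM in MS-5 only and 103, 96.4 and 95.5 TPM in co-culture. Sdhb, the iron-sulphur subunit, had 84.3, 80.5 and 85.5 TPM in MS-5 only and 70.9, 75.0 and 70.1 TPM in co-culture. Neither overlapped in TPM, but both did in CPM, with log2 fold changes of −0.27 ± 0.28 SE and −0.20 ± 0.28 SE (edgeR adjusted p = 0.781 and 0.861). Sdha, the flavoprotein that oxidises succinate, and Sdhc, the other anchor, overlapped on both scales (−0.14 ± 0.22 SE and −0.11 ± 0.32 SE).

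In complex III, 8 of 9 nuclear subunits had a log2 fold change below 0 (median −0.19). The summed level was 2822, 2748 and 2911 TPM in MS-5 only and 2742, 2500 and 2489 TPM in co-culture, so that the highest co-culture library, MC1, lay just below MO2. The means were 2827 ± 81.8 and 2577 ± 143 TPM (SD, n = 3). In CPM the sums overlapped, at 808 to 1408 in MS-5 only and 739 to 1275 in co-culture. Cyc1, the cytochrome c1 that hands electrons to cytochrome c, was at 354, 157 and 270 CPM in MO1, MO2 and MO3 and at 263, 241 and 143 CPM in MC1, MC2 and MC3. These overlapped (log2 fold change −0.27 ± 0.36 SE, edgeR adjusted p = 0.850), and MO1 alone was far above the rest. Uqcrb, a subunit near the coenzyme Q site, had 302, 271 and 299 TPM in MS-5 only and 266, 242 and 232 TPM in co-culture, without overlap in TPM. Uqcrh, the hinge subunit that helps cytochrome c dock, was the exception, at 0.12 ± 0.27 SE, and Uqcr11 and Uqcrq, the nuclear subunits with the highest TPM, stood at −0.04 ± 0.25 SE and −0.14 ± 0.31 SE.

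In complex V, 15 of 17 nuclear subunits lay below 0, and the median log2 fold change was −0.13. Atp5b, the catalytic beta subunit, had the highest TPM of all nuclear members, with 1630, 1361 and 1406 TPM in MS-5 only and 1596, 1398 and 1233 TPM in co-culture. The groups overlapped (log2 fold change −0.18 ± 0.38 SE, edgeR adjusted p = 0.937). Atp5g1, Atp5g2 and Atp5g3 encode the same mature c subunit of the rotor ring. Atp5g1 had 427, 294 and 418 TPM in MS-5 only and 333, 334 and 212 TPM in co-culture, while Atp5g3 had 777, 651 and 739 TPM in MS-5 only and 712, 819 and 607 TPM in co-culture. Their log2 fold changes were −0.34 ± 0.44 SE, −0.10 ± 0.31 SE for Atp5g2 and 0.01 ± 0.36 SE for Atp5g3. Atp5d, the delta subunit of the stalk, stood at 0.02 ± 0.35 SE and Atp5s, a coupling factor, at −0.32 ± 0.28 SE from only 1.92 to 3.25 CPM.

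Summed over all 80 nuclear members, the level was 24121, 22856 and 25101 TPM in MS-5 only and 24259, 22071 and 21033 TPM in co-culture. The groups overlapped, with means of 24026 ± 1126 and 22454 ± 1647 TPM (SD, n = 3). A negative log2 fold change was found for 66 of the 80 members, and their median was −0.13. In MC3 against MO2, 68 of 80 were lower (85.0%, against 55.8% of all genes), and in MC1 and MC2 against MO1 and MO3, 62 of 80 were lower (77.5%, against 50.5%). The lean was not independent of single libraries: 36 of 80 were negative without MO3 (median 0.04) and 21 of 80 without MC3 (median 0.09).

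On the TPM scale, counted after the data had been seen, all co-culture libraries lay below all MS-5 only libraries for 16 of 80 nuclear members, or 20%, against 7.53% of all genes. They lay above for 5 nuclear members, against 7.68% of all genes. The 16 were 8 of complex I, 2 of complex II, 2 of complex III, 1 of complex IV and 3 of complex V. With a covariate for MO2 and MC3 in edgeR, 23 nuclear members were called lower and 3 higher, where 16.4% of all genes were called lower and 13.9% higher. Among the 23 were 14 of 35 in complex I, 2 of 4 in complex II, 3 of 9 in complex III, 1 of 15 in complex IV and 3 of 17 in complex V. They included Ndufa9, Ndufa5, Atp5g1 and Sdhd (edgeR adjusted p = 0.0138, 0.0181, 0.0189 and 0.0275 with the covariate). The 3 called higher were Ndufa4l2, Cox7a1 and Ndufv3. With MO2 and MC3 left out in place of the covariate, 2 of the 80 were called lower, against 4.71% of 13047 genes, and 3 higher, against 8.33%. The count of lower calls thus depended on the fit. These fits also differ in the number of libraries and of genes tested.

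**Figure D3:**
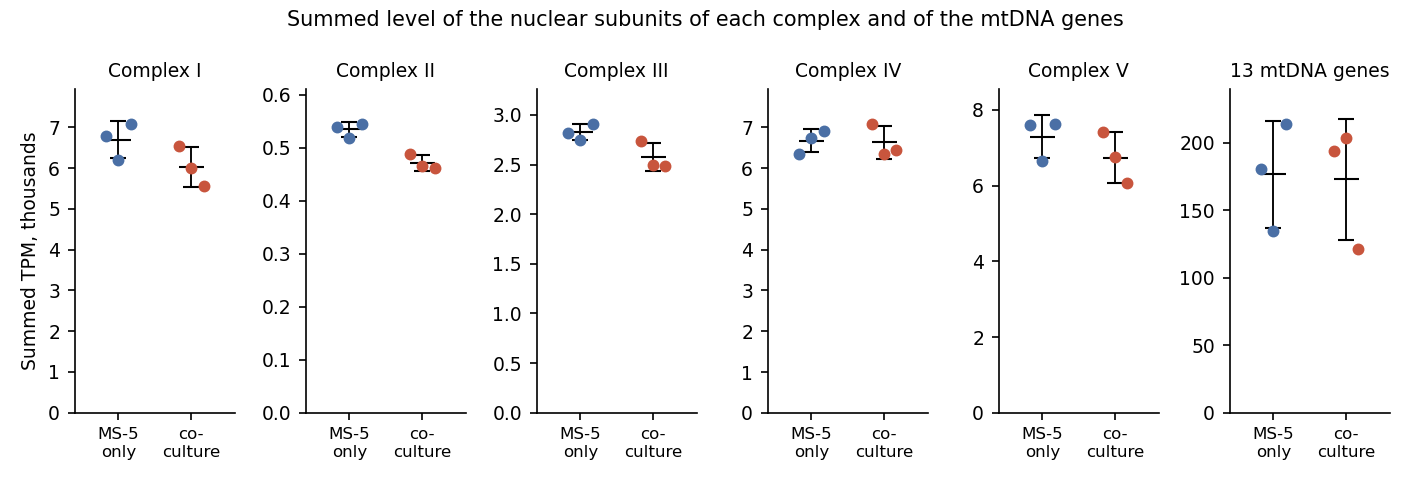
Summed level in TPM divided by 1000 (vertical axes, each from 0) of the nuclear subunits of complexes I to V and of the 13 mtDNA genes, in MS-5 only (blue) and co-culture (red). Points are libraries in the order of replicate numbers, with the mean and SD in black. In TPM, though not in CPM, complexes II and III do not overlap between groups (540, 518 and 545 against 489, 465 and 461 TPM for complex II), and the mtDNA genes differ most by the low MO2 and MC3.

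None of the 13 mitochondrial genes was called, where 3.71% of all genes were called higher and 0.666% lower. The groups of all 13 overlapped on both scales, 7 had a negative log2 fold change, and the median was −0.00. Their summed level was 180575, 134981 and 214218 TPM in MO1, MO2 and MO3 and 193976, 203468 and 121682 TPM in MC1, MC2 and MC3. MO2 and MC3 were the lowest of their groups, and the means were 176592 ± 39768 and 173042 ± 44732 TPM (SD, n = 3). The ratio of mitochondrial to nuclear subunit TPM was 7.49, 5.91 and 8.53 in MS-5 only, against 8.0, 9.22 and 5.79 in co-culture, which overlapped as well.

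Among the complex I subunits of mtDNA, the log2 fold changes were −0.10 ± 0.59 SE for mt-Nd1, −0.09 ± 0.54 SE for mt-Nd2, −0.05 ± 0.55 SE for mt-Nd4 and 0.00 ± 0.43 SE for mt-Nd5, all membrane arm subunits. Mt-Nd1 had 14810, 8718 and 14320 TPM in MS-5 only and 13670, 13430 and 7985 TPM in co-culture. Mt-Nd4l stood at −0.00 ± 0.42 SE and mt-Nd3 at −0.13 ± 0.77 SE. Mt-Nd6, the protein gene of the light strand of mtDNA, had 4266, 3906 and 5021 TPM in MS-5 only and 4989, 5168 and 3880 TPM in co-culture (0.13 ± 0.40 SE). Its libraries followed the same split, with MO2 and MC3 lowest. The kit was stranded, but whether the counting used strand is not given in the sources used here.

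Mt-Cytb, the only mtDNA subunit of complex III, had 21780, 14230 and 26870 TPM in MS-5 only and 22700, 23350 and 14330 TPM in co-culture (log2 fold change −0.06 ± 0.64 SE). Of the catalytic core of complex IV, mt-Co1 stood at 0.13 ± 0.68 SE, mt-Co2 at 0.08 ± 0.70 SE and mt-Co3 at 0.01 ± 0.57 SE. Mt-Co1, which holds the oxygen-reducing centre, had 20810, 14190 and 26680 TPM in MS-5 only and 25380, 26300 and 15860 TPM in co-culture. In complex V, mt-Atp6, part of the proton channel, stood at 0.04 ± 0.57 SE and mt-Atp8 at −0.10 ± 0.30 SE. The adjusted p of the 13 genes by edgeR lay between 0.961 and 0.999. Their SE were between 0.30 and 0.77, wider than the 0.27 of Ndufa4l2 and Cox7a1.

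Nuclear copies of mtDNA limit how far single mitochondrial genes can be read. Of the stretches of 31 bases in the mitochondrial members, a median of 62.8% also occurred in transcripts of other genes, and in 7 of 13 over 50% did, mostly in unprocessed pseudogenes. The median for nuclear members was 2.20%, with 0 of 80 over 50%. For mt-Nd3, the pseudogene that shares 98.1% of its stretches was given 165 to 589% of the counts of mt-Nd3 itself. For mt-Co2, whose stretches are all shared, 3 pseudogenes had 2.73 to 59.2% of its counts. Mt-Atp8 shared only 7.47% of its stretches, with mt-Atp6 and a pseudogene that matches 99.5% of mt-Atp6, and this pseudogene had 46.5 to 211% of the counts of mt-Atp8. The highest shares for mt-Atp6, mt-Co1 and mt-Co3 were 16.2, 11.8 and 1.74%, and those of the other mitochondrial genes were below these. Over the whole set, 21 such pseudogenes held 3.74 to 9.35% of the counts of the 13 members, most in MC3. Mt-Atp6 with mt-Atp8 and mt-Nd4 with mt-Nd4l overlap on the genome, so their reads may have been split.

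MO2 and MC3 set the spread of most subunits. Both lay below all other 4 libraries in CPM for 74 of 80 nuclear members (92.5%) and for 13 of 13 mitochondrial members, against 26.3% of all genes. The median log2 difference of MO2 and MC3 from the other 4 was −0.78 for nuclear and −1.24 for mitochondrial members and −0.07 for all genes. Subunit transcripts are short, with a median of 710 nt for the nuclear members against 2256 nt for all genes. Among all nuclear genes the same difference was −0.92 below 600 nt, −0.59 from 600 to 1000 nt, −0.25 from 1000 to 2000 nt, 0.05 from 2000 to 4000 nt and 0.32 above.

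Nuclear members of the same lengths stood at −0.69 for the 29 below 600 nt, −0.84 for the 31 from 600 to 1000 nt and −0.76 for the 17 from 1000 to 2000 nt. Members of middle length thus lay below other genes of their length, and the shortest did not. In TPM, the median difference was −0.13 for nuclear members, −0.58 for mitochondrial members and 0.59 for all genes. With an effective length offset in edgeR, 2 members were again called higher and 0 lower.

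**Figure D4:**
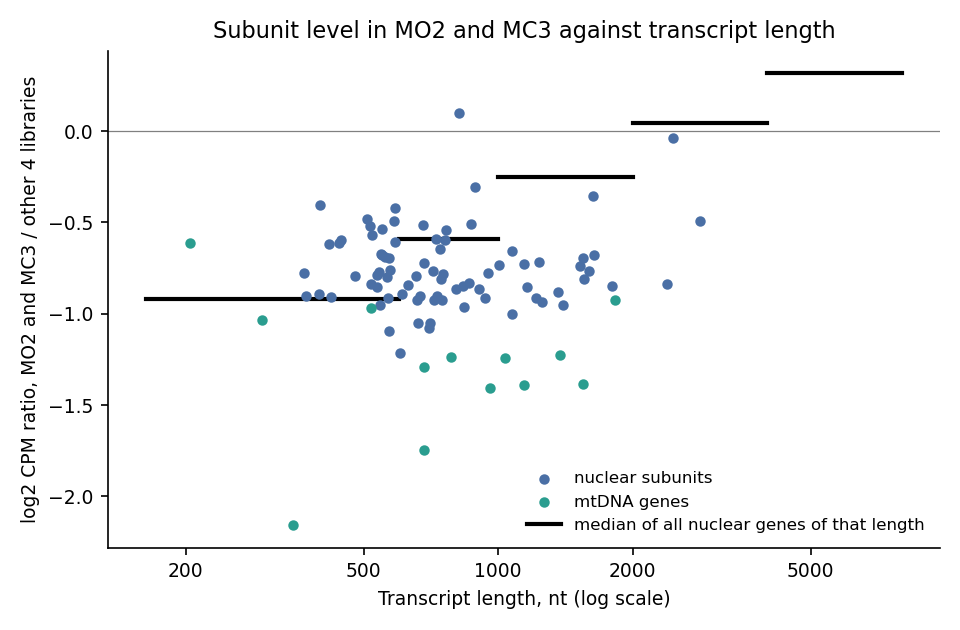
Log2 ratio of mean CPM in MO2 and MC3 to the other 4 libraries (vertical axis) against transcript length in nt (horizontal log axis) for nuclear (blue) and mitochondrial (green) members. Black lines are medians of all nuclear genes in a length class, from −0.92 below 600 nt to 0.32 above 4000 nt. Almost all members lie below 0, and those above 1000 nt lie below the line of their class.

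The transcripts that make, regulate and assemble the chain were examined as lists. Of 23 genes for mtDNA transcription and upkeep, 0 were called higher and 1 lower, against 3.71% and 0.666% of all genes. The gene called lower was Fastkd2, which encodes an RNA-binding protein of mitochondrial RNA granules. Fastkd2 was at 19.4, 14.6 and 17.7 CPM in MO1, MO2 and MO3 and at 10.7, 10.01 and 9.43 CPM in MC1, MC2 and MC3. The groups did not overlap in CPM but did in TPM, and the log2 fold change was −0.77 ± 0.17 SE (edgeR adjusted p = 0.0865). In this list 20 of 23 were negative, against 52.5% of all genes, with a median of −0.31. In CPM, 7 of 23 had all co-culture libraries below all MS-5 only libraries, against 9.60% of all genes, and in TPM 0 of 23 did, against 7.53%. With the covariate for MO2 and MC3, 13 of the 23 were called lower by edgeR, against 16.4% of all genes, and with both libraries left out 3 were, against 4.71%. Fastkd5, of the same family, had −0.66 ± 0.17 SE (adjusted p = 0.119), Mgme1, an mtDNA exonuclease, −0.58 ± 0.14 SE (adjusted p = 0.109) and Tfam, which packages mtDNA and starts its transcription, −0.25 ± 0.16 SE (adjusted p = 0.591), all by edgeR.

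Of 8 tested nuclear regulators of respiratory chain genes, 0 were called in either direction, against 3.71% higher and 0.666% lower of all genes. Their median was −0.03. With the covariate 2 of the 8 were called lower and 1 higher, against 16.4% and 13.9% of all genes. Without both libraries 0 and 1 were, against 4.71% and 8.33%. Nrf1, the transcription factor named for these genes, stood at −0.14 ± 0.13 SE and Pprc1, a coactivator, at −0.48 ± 0.17 SE (edgeR adjusted p = 0.731 and 0.271). Yy1 and Esrra, both transcription factors, stood at 0.33 ± 0.11 SE and 0.35 ± 0.16 SE (edgeR adjusted p = 0.242 and 0.386). In CPM the groups of Pprc1, Yy1 and Esrra did not overlap, with co-culture lower for Pprc1 and higher for Yy1 and Esrra, whereas in TPM the groups of each gene overlapped. Yy1 was the regulator called higher with the covariate (edgeR adjusted p = 0.0198). Of 14 genes for electron carriers and coenzyme Q synthesis, 0 were called, against 3.71% higher and 0.666% lower of all genes. Negative log2 fold changes were found for 10, against 52.5% of all genes, and the median was −0.21. With the covariate 6 of the 14 were called lower and 2 higher, against 16.4% and 13.9% of all genes, and without both libraries 3 and 0, against 4.71% and 8.33%. Cycs, which encodes cytochrome c, was at 98.2, 46.5 and 83.8 CPM in MS-5 only and 56.8, 49.1 and 27.7 CPM in co-culture (−0.77 ± 0.36 SE, edgeR adjusted p = 0.409). Its groups overlapped in CPM but not in TPM, and with the covariate the edgeR adjusted p was 0.0110. Coq8a, of coenzyme Q synthesis, had 0.958, 1.30 and 1.68 CPM in MS-5 only and 2.59, 7.85 and 3.41 CPM in co-culture (1.81 ± 0.50 SE, edgeR adjusted p = 0.146). It was highest in MC2, as the leukocyte markers were, and whether SKM-1 RNA entered its counts was not tested.

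Of 31 tested assembly factors of complexes II to V, 0 were called, against 3.71% higher and 0.666% lower of all genes. Negative log2 fold changes were found for 29, against 52.5% of all genes, and the median was −0.18. With the covariate for MO2 and MC3, 10 of the 31 were called lower, against 16.4% of all genes, and with both left out 2 were, against 4.71%. All co-culture libraries lay below all MS-5 only libraries for 4 of the 31 in CPM, against 9.60% of all genes, and for 7 in TPM, against 7.53%. Uqcc1, of complex III assembly, was at 33.1, 29.5 and 31.3 CPM in MS-5 only and 23.4, 24.8 and 23.0 CPM in co-culture, without overlap in CPM but with overlap in TPM (−0.40 ± 0.12 SE, edgeR adjusted p = 0.182). Higd1a, a small membrane protein that associates with complex IV and is known to respond to hypoxia, was at 49.0, 33.3 and 50.9 CPM in MS-5 only and 101, 81.7 and 63.4 CPM in co-culture. It did not overlap between groups on either scale but missed the threshold (0.88 ± 0.24 SE, edgeR adjusted p = 0.134), and with the covariate the edgeR adjusted p was 0.0105. Its relative Higd2a stood at 0.11 ± 0.27 SE, and Lonp1, a matrix protease, at 0.05 ± 0.18 SE.

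Promoters were read for what the members share beyond their names. RefSeq windows (GRCm38.p6, 250 bases before to 50 after a start) were found for 65 of the 80 nuclear members, Ndufa4l2 not among them. The letters GCGCA, any base and GCGC, a core of the site of the factor NRF1 searched on both strands, occurred in 17 of the 65 (26.2%) and in 5.19% of 27025 genes. CCGGAAG, a core of sites of ETS-family factors, occurred in 16 (24.6%) and in 9.93% of genes, and ACGTG, a core of hypoxia response elements, in 17 (26.2%) and in 21.8% of genes. The 27025 genes were not limited to expressed genes or matched to the members in base composition. ACGTG was found in the windows of Cox7a1 and Ndufv3. None of these motifs contains another, and a match of letters does not show that a factor binds. The windows below show a match to this NRF1 core, in either orientation, in capitals in 1 member each of complexes I, II, IV and V, with the match upstream of the start, all on the minus strand and written 5′ to 3′ along the gene.
Ndufa5 (chr6:24527697-24527726): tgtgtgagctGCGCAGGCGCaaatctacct
Sdhd (chr9:50603909-50603938): tcgctggggtGCGCACGCGCggtggcagcg
Cox6a1 (chr5:115349101-115349130): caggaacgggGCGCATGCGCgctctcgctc
Atp5c1 (chr2:10080430-10080459): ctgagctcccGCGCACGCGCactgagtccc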

How the data were processed

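Poly(A) RNA libraries made with a stranded Illumina kit were quantified by the authors with kallisto 0.43.0 against mouse cDNA (mm10), and the deposited files give, per transcript and library, estimated counts that need not be whole, TPM (transcript abundance per length, scaled to the library total), length and effective length. Both values were summed per gene through GENCODE M21 (116728 of 118489 transcripts matched, and the 1761 left out held 0.477 to 0.562% of counts). Estimated counts were rounded. The authors tested with sleuth 0.30.0, which was not used here.

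Genes passing filterByExpr (13221, all 93 members among them) were fitted with edgeR 4.0.16 (TMM scaling, quasi-likelihood test, 2 groups of 3, Benjamini-Hochberg adjustment, threshold 0.1, the looser of the q-value limits of 0.1 and 0.01 that the study states). CPM are TMM-scaled. Levels between genes were compared in TPM only. The pipeline was tested on simulated data. Alternatives used DESeq2 1.42.0, limma 3.58.1 on log2(TPM + 0.5), other scalings and filters, a replicate block, and a covariate for MO2 and MC3.

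Named members were all 13 mtDNA genes, those past the threshold, paired forms, and the 2 most positive, 2 most negative and 2 highest in TPM of each complex; others were named after their values were seen. 1 member that this rule names is not reported here. Members and lists were chosen with earlier results of these data known. The symbol rule leaves out Ndufab1.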

Additional observations from a re-analysis of the deposited data

How the results depend on the processing

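The calls depended on which libraries entered the fit. Of the 93 members, 2 were called higher and 0 lower. With library size alone 3 were called higher (Ndufv3 at an edgeR adjusted p of 0.0978) and with the replicate block 1 was. At edgeR thresholds of 0.05 and 0.01 there were 0 in each direction, and no gene of any kind passed 0.01 (lowest adjusted p 0.0269). Leaving out 1 library in turn gave 0 to 2 higher and 0 lower, with 0 genes of any kind called without MO1, without MO2 or without MO3. With a covariate for MO2 and MC3, 23 were lower, and without both libraries 2 were. Adjusted p of Ndufa4l2 and Cox7a1 were 9.74e-23 and 0.000222 by the DESeq2 Wald test, 0.0335 and 0.0367 by limma on log2(TPM + 0.5), 0.0174 and 0.0206 with a pseudocount of 0.1, and 0.0497 and 0.0504 with 1. Over all genes, the calls were 491 higher and 88 lower, 1835 and 2164 with the covariate, 1087 and 615 without both libraries, 443 and 1 with the block, 910 and 358 by the DESeq2 Wald test, 339 and 17 by limma and 653 and 51 with no filter. On the TPM scale, a comparison chosen after seeing the data, 5 members had co-culture entirely above MS-5 only and 16 entirely below, against 2 and 0 in CPM. Single libraries moved the nuclear median between −0.34 and 0.09 and the mitochondrial median between −0.28 and 0.29.

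The replicate numbers shared by the labels did not pair the libraries (r = 0.53, −0.29 and −0.52 across genes for numbers 1 to 3). With the block, Ndufa4l2 remained the 1 member called higher and Cox7a1 had an edgeR adjusted p of 0.108.

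Of the 41 named members, 30 that were not called changed sign when 1 library was left out in turn. The lowest and highest log2 fold changes were −0.41 to 0.058 for Atp5b, −0.24 to 0.26 for Atp5d, −0.24 to 0.27 for Atp5g3, −0.28 to 0.17 for Cox4i1, −0.20 to 0.19 for Cox6a1, −0.32 to 0.13 for Cox7a2, −0.097 to 0.29 for Cox8a, −0.54 to 0.031 for Cyc1 and −0.26 to 0.041 for Ndufa4. They were −0.54 to 0.023 for Ndufb8, −0.43 to 0.12 for Ndufb9, −0.28 to 0.015 for Sdha, −0.35 to 0.12 for Sdhc, −0.21 to 0.15 for Uqcr11, −0.44 to 0.0031 for Uqcrb, −0.094 to 0.32 for Uqcrh and −0.34 to 0.10 for Uqcrq for the rest of the nuclear members. Among mitochondrial members they were −0.26 to 0.38 for mt-Atp6, −0.33 to 0.15 for mt-Atp8, −0.20 to 0.48 for mt-Co1, −0.28 to 0.49 for mt-Co2, −0.29 to 0.40 for mt-Co3, −0.40 to 0.27 for mt-Cytb, −0.43 to 0.24 for mt-Nd1, −0.41 to 0.21 for mt-Nd2, −0.74 to 0.43 for mt-Nd3, −0.35 to 0.27 for mt-Nd4, −0.28 to 0.29 for mt-Nd4l, −0.24 to 0.25 for mt-Nd5 and −0.12 to 0.40 for mt-Nd6. Other changes of sign were Cox6a1 0.0039 and mt-Nd4l 0.0073 with DESeq2 size factors, Cox6a1 0.0090 and mt-Nd4l 0.012 with totals from nuclear genes only, Cox6a1 0.0039 and mt-Nd4l 0.0073 by the DESeq2 Wald test, Atp5g3 −0.0076, mt-Co3 −0.0040 and mt-Nd5 −0.0012 with a length offset, mt-Nd5 −0.0020 with no filter, Atp5g3 −0.017 and mt-Nd4l 0.012 with the replicate block, Atp5g3 −0.0087, mt-Co2 −0.015 and mt-Co3 −0.013 with the covariate, Cox6a1 0.024, mt-Atp8 0.064, mt-Nd4l 0.015 and Uqcr11 0.014 without MO2 and MC3. By limma on log2(TPM + 0.5) they were Atp5g3 −0.026, mt-Atp6 −0.00091, mt-Co2 −0.025 and mt-Co3 −0.0075, and pseudocounts of 0.1 and 1 gave the same rounded values. The cause of these changes was not tested.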
